A study of Homo sapiens with 6 samples.

Results

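The primary granule genes MPO, ELANE and CTSG were followed on 6 arrays of NB4 cells, each through 1 probe. The probes are A_23_P141173 for MPO, A_23_P130961 for ELANE and A_23_P140384 for CTSG, and they are 3 of the 138405 distinct probes measured besides controls. They were chosen from earlier results on these same arrays, that is with the difference between the ATPR and Solvent groups in view, so their levels and differences are given as a description and no test is read from them. The files identify probes without gene symbols, and the pairing of these identifiers with the 3 genes came with the choice.

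NB4 is an established line of acute promyelocytic leukemia cells, which are arrested at the promyelocyte stage. ATPR is a derivative of all-trans retinoic acid, a drug that makes such cells differentiate. The Solvent group (n = 3) received the vehicle and the ATPR group (n = 3) received ATPR, and RNA of both was taken after 72 h. The treatment protocol in the labels, worded alike for all 6 samples, also mentions irradiation and a dilution into serum-containing medium, and the labels name no dose of ATPR. The design text speaks of 3 independent experiments, and nothing else says what separates the replicates. The study used these arrays to see which transcripts change while ATPR induces differentiation, and the granule genes bear on that question because they belong to the promyelocyte stage.

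Primary granules, also called azurophil granules, are the first granules a developing neutrophil makes. They are filled at the promyelocyte stage with enzymes that kill and digest microbes, and the messages for these enzymes are normally switched off as the cell goes on to the myelocyte and later stages. MPO encodes myeloperoxidase, a heme enzyme that makes hypochlorous acid from hydrogen peroxide and chloride, and is the classic stain of the myeloid lineage. ELANE encodes neutrophil elastase and CTSG encodes cathepsin G, both serine proteases stored in the same granules.

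The probes are shown because each gene rests on a single one. Each is 60 bases long and lay on 1 spot per array. Capitals mark the longest stretch that a probe shares, on the same strand, with any other probe on the array. All 60 bases are printed for ELANE and the first 30 for MPO and CTSG, 5′ to 3′.
MPO: cctgttctGGGTGCAGCTGAGAaaatgagt
ELANE: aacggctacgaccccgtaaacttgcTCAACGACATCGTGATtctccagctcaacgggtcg
CTSG: tgtgactgactcttCTTCTCGGGGACACAG
The shared stretch was 14 bases for MPO and 16 bases for both ELANE and CTSG, and in each case 1 other probe held it. The GC content was 45% for the MPO probe and 55% for the ELANE and CTSG probes. Every reading frame of the MPO probe holds a stop codon, while 2 of 3 frames of the ELANE probe and 1 of 3 frames of the CTSG probe hold none.

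MPO was among the brightest signals of the Solvent arrays and far dimmer on the ATPR arrays. Its processed signal, the spot intensity after background subtraction by Agilent Feature Extraction, was 100828, 112043 and 87233 on Solvent replicates 1, 2 and 3. On ATPR replicates 1, 2 and 3 it was 795, 709 and 785. The groups did not overlap, and the probe was well above background, by the extraction program's own flag, on all 6 arrays.
The program's error was 10.0% of the signal on every array for this probe. It is an error of the single spot and does not measure variation between arrays. No spot was saturated on any array. For comparison between arrays, log2 signals were scaled to the 75th percentile of the 31233 probes that carried this flag on all 6 arrays. On that scale the log2 level of MPO was 7.75 ± 0.32 for Solvent and 1.70 ± 0.15 for ATPR (SD, n = 3 each). The log2 difference was -6.05 (standard error 0.23 from the fit across all tested probes), a level 66.3-fold lower in the ATPR group. This standard error takes the arrays as independent, and it was 0.34 when arrays of the same slide were allowed to be alike. The size depended on the scale, and MPO was 131-fold lower without scaling and 168-fold lower when scaled to the E1A spike-ins, probes for a foreign RNA mixed in at labelling. In bulk RNA, fewer cells with the message and less message per cell cannot be told apart.

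CTSG gave a moderate signal on the Solvent arrays, each time well above background, and lost that flag on all ATPR arrays. Its processed signal was 231, 213 and 216 on Solvent replicates 1, 2 and 3, a narrow range. On ATPR replicates 1, 2 and 3 it was 10.4, 6.57 and 5.29, with program errors of 2.40, 2.05 and 2.05.
All ATPR arrays lay below all Solvent arrays. The ATPR spots were still brighter than all 600 negative control spots of their array. Since the ATPR spots were not well above background, only a bound on the fold change can be given. It sets the Solvent mean against, on each ATPR array, the higher of the CTSG signal and the dimmest flagged probe of that array, which had a signal of 9.05, 7.61 and 8.01 on ATPR replicates 1, 2 and 3. By this bound CTSG was 13.0-fold lower with ATPR on the scale used here. The dimmest flagged probe is a lenient floor, since CTSG lacked the flag at 10.4 on ATPR replicate 1, above the 9.05 there. The bound is therefore approximate. The bound depended on the processing and was 3.19-fold with normexp background correction and an offset of 50 and 32.9-fold on the E1A scale. The offset is a constant added to every signal, and it is larger than the CTSG signals on the ATPR arrays. The E1A scale moves all probes of an array by the same amount. The measured log2 levels were -1.07 ± 0.13 for Solvent and -5.04 ± 0.35 for ATPR (SD, n = 3 each). Their measured difference of -3.97 (standard error 0.23) is no fold change, since the ATPR side was not well above background.

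The ELANE probe was near background in both groups, so the arrays do not show it as an abundant granule gene of these cells. With 1 probe, a low transcript level and a probe that binds poorly cannot be told apart. The processed signal was 9.11, 8.65 and 10.9 on Solvent replicates 1, 2 and 3 and 8.82, 6.58 and 5.34 on ATPR replicates 1, 2 and 3. The program errors lay between 2.03 and 2.36, which is from 21.6% to 40.0% of the signal. Only Solvent replicate 3 was flagged as well above background.
The unscaled groups overlapped, as ATPR replicate 1 was brighter than Solvent replicate 2. Even so, the signal was above that of at least 598 of the 600 negative control spots on each array, whose median lay between 1.98 and 2.18. The probe was thus not among the tested probes, which needed the flag on all 3 arrays of the Solvent or the ATPR group. No fold change is given, as only 1 of the 6 spots was well above background.
The sign of the measured ELANE difference depended on the scale. It was -0.49 (log2) without scaling, 0.49 on the scale used here and -0.85 with the E1A spike-in probes as the scale. The group levels did not overlap on either scaled version, and they ran in opposite directions. The 3481 probes flagged like ELANE, on 1 Solvent array and no ATPR array, had a median log2 difference of -1.21 before scaling and -0.23 after it. Choosing probes by a flag on the Solvent side alone favours a negative difference, so this median is no neutral reference. For the 82939 probes flagged on no array the median was -0.04 before scaling and 0.93 after it. No direction can be read for ELANE from these arrays.

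**Figure D1:**
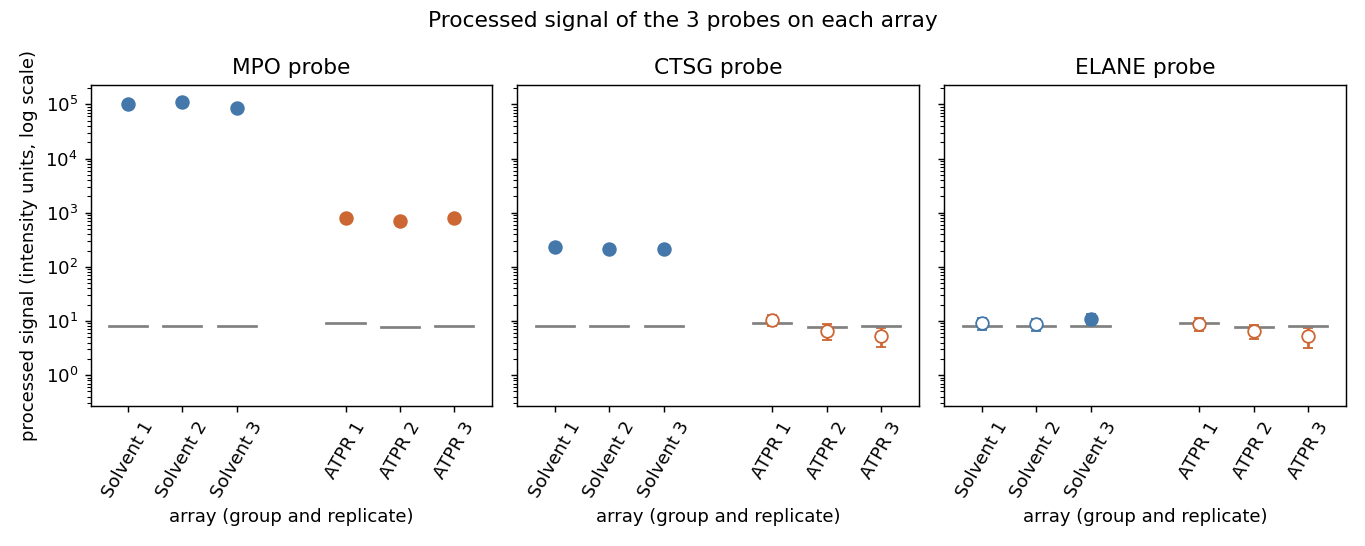
Processed signal (intensity units, log axis) of the MPO, CTSG and ELANE probes on each of the 6 arrays. Filled points were well above background and open points were not, error bars are the extraction program's error of the spot, and grey lines give the dimmest flagged probe of that array. MPO goes from 100828 on Solvent replicate 1 to 795 on ATPR replicate 1, CTSG drops to the grey lines, and ELANE sits at them in both groups.

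MPO and CTSG, 2 of the members, were among the 44840 probes tested with limma, and both met the call rule of an adjusted p-value below 0.05 and a fold change of at least 2 in the lower direction. Over all tested probes 23.8% met it in that direction. Both members also had every ATPR array below every Solvent array, against 32.0% of tested probes. Since the members were chosen with this contrast known, nothing is read from these counts.
Within an array the log2 ratio of the MPO signal to the CTSG signal went from 8.82 ± 0.20 for Solvent to 6.74 ± 0.48 for ATPR (SD, n = 3 each), a quantity free of any scaling. The CTSG side of the ATPR ratio is not well above background, so whether MPO or CTSG was reduced more could not be measured.

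The difference of MPO lay outside the range of the 200 probes nearest to it in mean Solvent signal. These spanned signals from 54178 to 323006, against 217 to 223 for the 200 around CTSG, so their brightness was only roughly alike. Probes brighter than MPO were rich in C, as given below. Of the 31233 probes flagged on every array, 0 had a larger decrease than MPO. The next one had a log2 difference of -5.47, and 76 had one of -4 or lower. This ranking leaves out tested probes that lacked the flag on some array, such as CTSG. Some of those had a lower measured difference than MPO, so MPO was not the lowest of all tested probes. Among the 200 probes nearest to MPO in mean Solvent signal, 100 on either side, the log2 difference had a median of 0.51 and ranged from -2.04 to 1.23. Without scaling their median was -0.47, and the difference of MPO was -7.03.
CTSG lay within the range of its neighbours. Of the 200 probes nearest to it in Solvent signal, 4 had a lower measured difference, and the median of the 200 was -0.05, or -1.02 without scaling. Like CTSG, 2 of these 200 lacked the flag on all ATPR arrays. Among all tested probes, 5762 had the flag on all Solvent arrays and on no ATPR array, and 75 of those were brighter than CTSG in the Solvent group.
For ELANE, 128 of the 200 nearest probes had a lower measured difference. These positions describe the arrays and are not tests.

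**Figure D2:**
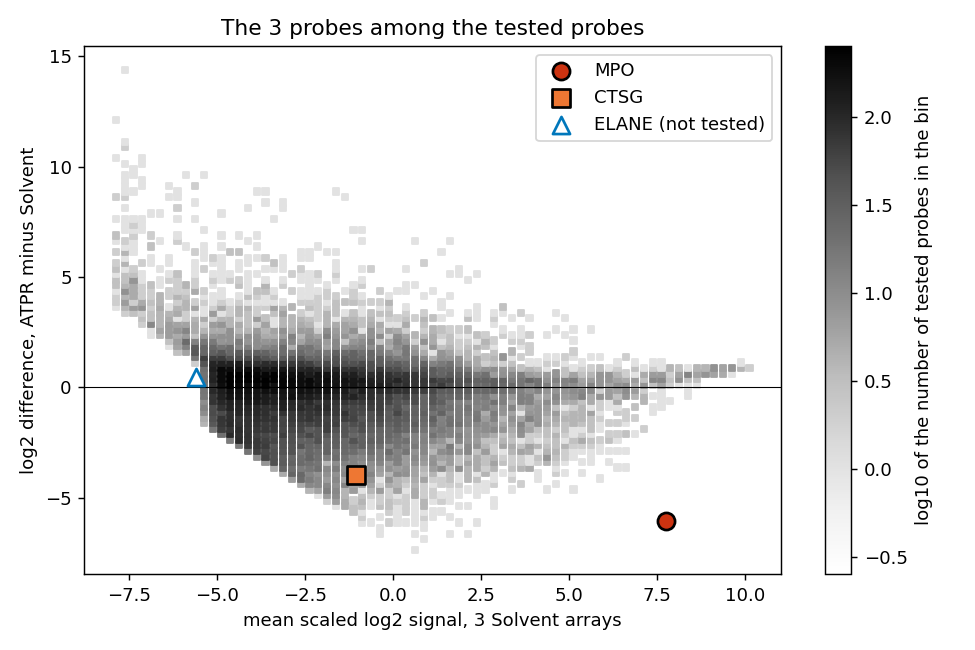
Log2 difference (ATPR minus Solvent) against the mean scaled log2 signal of the 3 Solvent arrays, for 44822 of the 44840 tested probes in bins shaded by the log10 of their number (the other 18 lacked a value on 1 or more Solvent arrays). MPO lies alone at the lower right at -6.05, CTSG lies at -3.97 inside the cloud, and ELANE, drawn open because it was not tested, lies at the dim edge.

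The rank of the signal on an array says how bright a probe is, not how many transcripts it stands for, because probes differ in how well they bind and label. On the Solvent arrays the MPO probe ranked 125, 109 and 138 among the probes with a value, 138380 of them on Solvent replicate 1. That is the top 0.0903% at the median. On the ATPR arrays it ranked 3628, 3624 and 3228, so the probe was still in the top 2.62% at the median after ATPR.
MPO was thus still well above background after 72 h of ATPR. CTSG ranked 13082, 11828 and 13619 on the Solvent arrays, the top 9.45% at the median, and 38632, 44889 and 48928 on the ATPR arrays. ELANE ranked 52282, 48913 and 50376 on the Solvent arrays and 41195, 44874 and 48719 on the ATPR arrays. The ATPR ranks of CTSG and ELANE lie in the part of the list where probes are not well above background, since 36803 to 37915 probes per ATPR array carried the flag. There a rank carries little information.

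**Figure D3:**
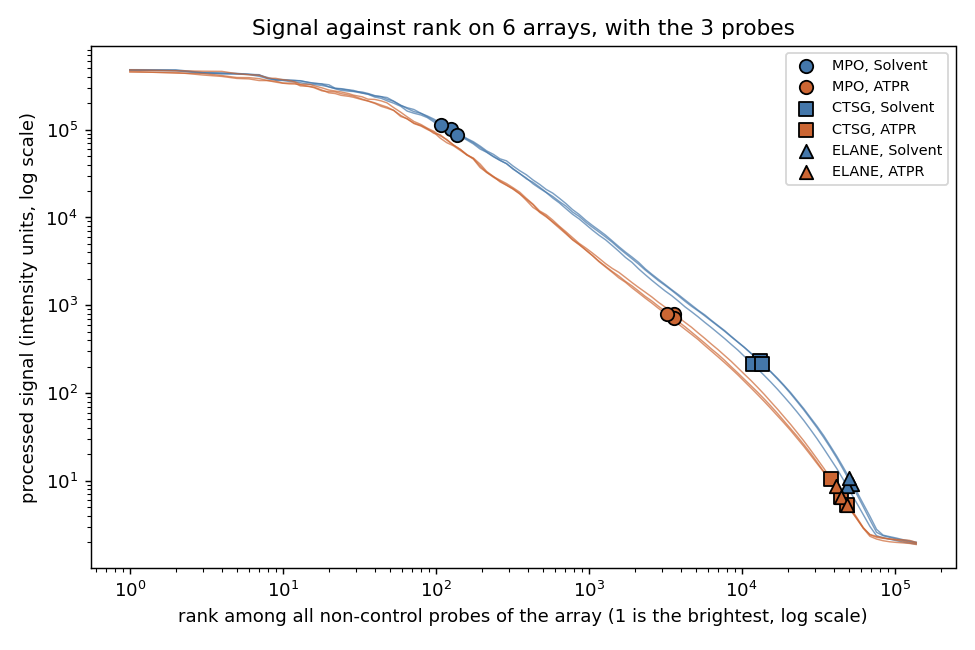
Processed signal against rank for all non-control probes of each array (both axes log), with lines for the 3 Solvent arrays in blue and the 3 ATPR arrays in orange. The MPO probe moves from ranks between 109 and 138 to ranks between 3228 and 3628. On the ATPR arrays CTSG lies near ELANE, at ranks between 38632 and 48928, with most probes still dimmer.

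The arrays of the groups differed as wholes, which bears on the size of these values. Before scaling, the log2 percentile used for scaling was 8.85 ± 0.16 for Solvent and 7.87 ± 0.15 for ATPR (SD, n = 3 each), with no overlap. The E1A spike-ins went from 8.25 ± 0.07 to 8.62 ± 0.23 (SD, n = 3 each). Of the 175899 non-control spots per array, 35.8% to 39.0% were well above background on the Solvent arrays and 28.4% to 29.6% on the ATPR arrays, so fewer spots carried the flag on every ATPR array.
The gap between the 3′ and 5′ probes of GAPDH, a sign of RNA integrity, was 1.07 ± 0.13 in the Solvent group and 1.34 ± 0.16 in the ATPR group (log2, SD, n = 3 each) without overlap. For PGK1 the gap was 2.92 ± 0.22 and 3.03 ± 0.10 with overlap. The part of these array-wide values in those of MPO and CTSG was not tested. All Solvent arrays were on 1 slide and the ATPR arrays on 2 others, so slide and group cannot be told apart.
The differences of MPO and CTSG kept their direction on every scale. On the log2 values normalized by the authors MPO was 16.30 ± 0.19 for Solvent and 10.00 ± 0.13 for ATPR (SD, n = 3 each), which is 78.7-fold lower.

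**Figure D4:**
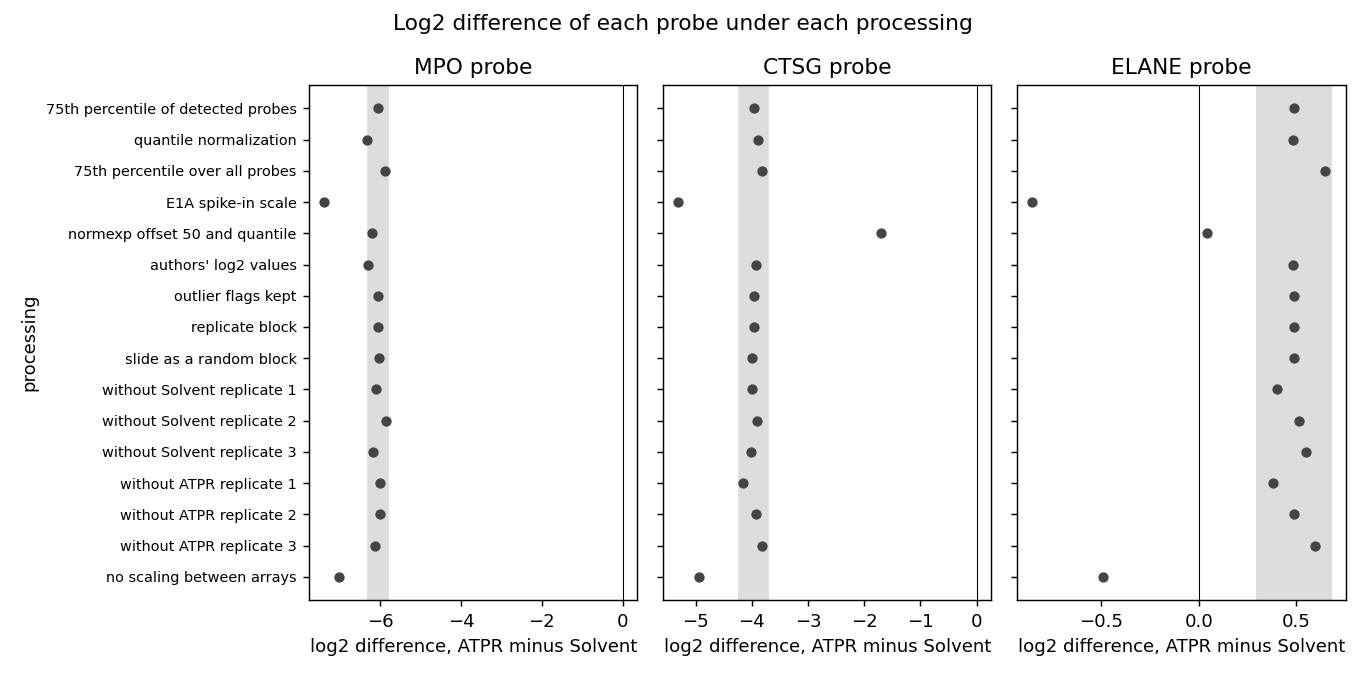
Log2 difference (ATPR minus Solvent) of the MPO, CTSG and ELANE probes under each processing, with the grey band giving 1 SD between replicates around the value at the top. All MPO points lie between -7.39 and -5.87 and all CTSG points between -5.31 and -1.69, while the ELANE points lie on both sides of 0.

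Genes of the primary granule are known to be driven in promyelocytes by a small set of transcription factors, among them MYB, RUNX1, C/EBP proteins and PU.1, an ETS factor. The RefSeq promoter table (GRCh38.p14) matched 1 of the 3 genes, CTSG. The 250 bases before its start, chr14:24576251-24576500 on the minus strand, are printed because CTSG was the only member in that table. Capitals mark matches on either strand to the ETS core GGAA and the MYB core AACNG.
CTSG: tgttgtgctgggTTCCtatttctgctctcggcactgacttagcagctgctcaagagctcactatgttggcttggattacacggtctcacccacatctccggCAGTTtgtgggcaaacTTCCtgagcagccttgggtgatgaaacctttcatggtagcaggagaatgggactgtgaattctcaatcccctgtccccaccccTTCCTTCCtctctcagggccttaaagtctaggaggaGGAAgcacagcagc
GGAA occurred 5 times, 1 on the printed strand and 4 on the other, and 92.7% of the 35116 promoters of this length held it at least once, while 18.6% held as many or more. AACNG occurred 1 time, and 70.6% of promoters held it. The RUNX core TGTGGT and the C/EBP pattern TTNNGNAA, searched in the same way, had 0 matches, against 11.0% and 33.2% of promoters with one. None of these matches is a measured binding site.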

How the data were processed

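RNA of 6 NB4 samples was labelled with Cy3 and hybridized singly to Agilent arrays of 60-base probes. The authors deposited intensity files from Agilent Feature Extraction 10.7.1.1, whose headers name the build hg19, and a table of log2 values that the authors normalized, in the study's words relative to the control, by a method it refers to an earlier article for (a median of 1.48 on each array). Those tables were read by probe identifier.

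From the deposited intensities, log2 of the processed signal was taken, spots with an outlier flag were left out, spots of 1 probe were averaged, and each array was scaled to its 75th percentile over the 31233 probes that Feature Extraction flagged, for at least 50% of their spots, as well above background on every array. The 44840 probes flagged on all arrays of either group were fitted with limma 3.58.1 in R 4.3.3, using lmFit and eBayes with two-sided p-values adjusted by the Benjamini-Hochberg method. Python 3.11.15, numpy 2.4.6, pandas 2.3.3 and matplotlib 3.10.9 served for the rest. The fit was tested on simulated data.

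The members and lists were chosen with earlier results of these data known. Named besides the members are the 2 probes nearest to the members' mean profile. The other granule, regulator and marker gene lists, and other probes of the 3 genes, were planned and not run, since no table used here pairs probes with genes. The number of arrays limits the precision.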

Additional observations from a re-analysis of the deposited data

How the results depend on the processing

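The 3 probes' log2 differences were recomputed under 15 alternatives, of which leaving out the scaling was chosen after seeing the data. MPO moved by more than the spread between replicates under 3 of 15, to -6.33 after quantile normalization, -7.39 on the E1A scale and -7.03 without scaling. CTSG moved under 3, to -5.31 on the E1A scale, -1.69 with normexp and -4.95 without scaling. ELANE moved under the same 3, to -0.85 on the E1A scale, 0.043 with normexp and -0.49 without scaling. With each array left out in turn, MPO lay between -6.19 and -5.87, CTSG between -4.16 and -3.82 and ELANE between 0.38 and 0.59. The median Solvent ranks moved by less than the spread between arrays under all 8 alternatives, and with a Solvent array left out lay between 117 and 131.5 for MPO, 12455 and 13350.5 for CTSG, and 49644.5 and 51329 for ELANE.

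Of the tested probes 5363 were called higher and 10667 lower. The counts were 1234 and 28646 with the E1A scale (4.13% higher, against 33.5%) and 2309 and 3756 with normexp. Testing all probes gave 34042 higher (73.6% of calls). That set includes the 82939 probes flagged on no array, whose median log2 difference was -0.04 before scaling and 0.93 after it. These higher calls are therefore not read as raised transcripts. Testing only the probes flagged on every array gave 4501 lower (49.4% higher). With each array left out they lay between 4667 and 6812 higher and between 8666 and 11804 lower. A paired analysis, with replicate number as the block, gave 5231 higher and 10339 lower calls and left the MPO difference at -6.05 and that of CTSG at -3.97. Whether same-numbered arrays came from 1 experiment is not stated. Their deviations from the group means correlated at 0.25, -0.09 and -0.27, which does not settle it. The cause of each move was not tested. MPO and CTSG met the call rule under each alternative in which their difference was fitted, and leaving out the scaling was not fitted. Among these alternatives the lower calls over all tested probes ran from 3756 with normexp to 28646 with the E1A scale, each of 44840. Since the members were chosen with this contrast known, nothing is read from their calls. Signal over background limits CTSG to a bound and ELANE to no value.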

Other observations

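The 108 probes brighter than the MPO probe on all 3 Solvent arrays were rich in C. Their median C content was 31.7%, against 20.0% over all probes and 16.7% in the MPO probe, and 104 of the 108 had more C than the MPO probe. Over 35% C was seen in 32.4% of these brighter probes and in 0.314% of all probes. Their scaled log2 differences ran from -0.27 to 1.04 with a median of 0.70. The median was -0.04 over all tested probes and 0.22 over the probes flagged on every array. Without scaling the median of the 108 was -0.28. On the scaled values 0 of the 108 had a difference of -1 or lower. Whether composition bears on the rank of the MPO probe was not tested.

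The probes whose profile over the 6 arrays lay nearest to the mean of the 3 members, out of 31232 candidates well above background on all arrays, were A_24_P341677 and CUST_H6L_08157, at a root mean square distance of 0.05 and 0.06 (log2). Their log2 differences were -3.20 for both, against -3.18 for the mean profile of MPO, CTSG and ELANE. That mean joins 3 unlike profiles and includes a dim probe that was well above background on 1 of 6 arrays, so the likeness is to an average that none of the members shows. The signal of A_24_P341677 was 3023, 3163 and 3169 on the Solvent arrays and 204, 170 and 147 on the ATPR arrays.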
